A study of Mus musculus with 20 samples.

Results

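The levels of 9 genes that mark the projection neurons of the striatum were followed through 20 mouse brain libraries. They are 9 of the 23845 genes in the deposited tables, taken by name: Drd2, Adora2a, Penk, Gpr6, Drd1, Tac1, Ppp1r1b, Rgs9 and Pde10a. All 9 passed the filter on low counts, which left 16063 genes for testing.

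The libraries were made from brain RNA of mice whose labelled strain is C57/Bl6J, fed a normal diet. They form 7 genotype groups, called here by their labels. Wild type had 3 libraries, as did the line labelled J1 lf/lf, the line labelled J2 lf/lf, and J17a, J27b and J27a, while J17b had 2. The study set single-isoform knockout mice against controls to characterise a mouse model and its use of exons. The codes stay unexplained, as does the question of which form each line lost or retained, and age, sex, pooling and the driver of any deletion are not given. No label ties the libraries of a group to separate animals, so a p-value here measures the spread among these samples alone, which may be technical.

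The striatum is the input nucleus of the basal ganglia, and nearly all of its neurons are GABAergic projection neurons, also called medium spiny neurons. Those of the direct pathway carry the dopamine receptor Drd1 and make substance P from Tac1, and dopamine excites them through cyclic AMP. Those of the indirect pathway carry the dopamine receptor Drd2, the adenosine receptor Adora2a and the orphan receptor Gpr6, and make enkephalin from Penk. Both kinds share the phosphoprotein Ppp1r1b, which integrates dopamine and glutamate signals, the regulator of G protein signalling Rgs9 and the cyclic nucleotide phosphodiesterase Pde10a. In RNA from bulk brain, fewer cells of a type and less RNA per cell cannot be told apart.

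Library totals ran from 21395041 to 33828755 estimated counts. General neuron markers (Rbfox3, Snap25, Syt1, Map2, Tubb3 and Eno2) were present in every library, with a summed level of 5687 to 6581 CPM (counts scaled to the size of the library). The series title names a JNK isoform. Of the genes for the stress kinases JNK1 and JNK2, Mapk8 was at 74.6 to 79.2 CPM in J17b and at 102 CPM or more in all other libraries. Mapk9 was at 177, 171 and 58.1 CPM in J2 lf/lf replicates 1, 2 and 3 and at 274 CPM or more elsewhere. The precursor of ribosomal RNA, Rn45s, was at 3066 to 6718 CPM in Wild type, J1 lf/lf and J2 lf/lf. It was at 18173 to 54698 CPM in J17b, J27a and J27b. In J17a it was at 6560 CPM in replicate 1, whose title begins with the number 10. Replicates 2 and 3 of J17a, numbered 11 and 12, were at 18290 and 17321 CPM. Rn45s was thus high in all libraries numbered above 10 and low in the rest. Wild type is numbered up to 10, and J27a and J27b above it. Genotype, title number and Rn45s therefore cannot be told apart in those contrasts. Anterior pituitary transcripts (Gh and Prl above all) summed to 2921 CPM in J1 lf/lf replicate 3, 1268 CPM in Wild type replicate 2 and 574 CPM in J27a replicate 3. The remaining 17 libraries were at 79.4 CPM or less. J17a replicate 1 and J2 lf/lf replicate 1 stood apart from the rest in the striatal genes, and results that rest on them are given with and without them.

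The stretch before the start site is shown for 4 of the 9 genes, a pair from each pathway. The RefSeq promoter table (GRCm38.p6, which is mm10) held windows of 250 bases before to 50 bases after a start for 6 of the 9 genes, 8 windows in all. Adora2a, Penk and Ppp1r1b had no entry. The 250 bases before the start are printed 5′ to 3′ on the gene's own strand, for Drd2 (chr9:49340153-49340402, plus strand), Gpr6 (chr10:41072291-41072540, minus strand), Drd1 (chr13:54055659-54055908, minus strand) and Tac1 (chr6:7554811-7555060, plus strand). These RefSeq starts differ from the gene bounds of the GENCODE annotation given further below. Tac1 begins at 7554879 there and Drd1, on the minus strand, at 54055705, so part of both stretches lies inside the annotated gene. Capitals mark the cyclic AMP response element TGACGTCA or its shorter form TGACG on either strand.
Drd2 upstream: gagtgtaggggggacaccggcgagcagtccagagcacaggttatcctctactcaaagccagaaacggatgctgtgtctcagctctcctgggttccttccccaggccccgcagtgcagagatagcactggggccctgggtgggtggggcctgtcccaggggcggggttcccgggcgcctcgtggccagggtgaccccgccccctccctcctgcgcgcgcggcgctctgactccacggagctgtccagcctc
Gpr6 upstream: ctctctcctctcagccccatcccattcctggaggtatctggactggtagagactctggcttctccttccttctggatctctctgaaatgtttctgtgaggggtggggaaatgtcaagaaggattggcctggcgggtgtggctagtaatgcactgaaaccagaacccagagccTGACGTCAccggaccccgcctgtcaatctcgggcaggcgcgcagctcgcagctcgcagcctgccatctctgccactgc
Drd1 upstream: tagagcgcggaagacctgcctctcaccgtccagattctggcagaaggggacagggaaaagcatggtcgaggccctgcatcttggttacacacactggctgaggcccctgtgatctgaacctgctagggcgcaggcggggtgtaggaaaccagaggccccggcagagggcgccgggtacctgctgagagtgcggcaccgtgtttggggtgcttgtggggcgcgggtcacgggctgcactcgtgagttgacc
Tac1 upstream: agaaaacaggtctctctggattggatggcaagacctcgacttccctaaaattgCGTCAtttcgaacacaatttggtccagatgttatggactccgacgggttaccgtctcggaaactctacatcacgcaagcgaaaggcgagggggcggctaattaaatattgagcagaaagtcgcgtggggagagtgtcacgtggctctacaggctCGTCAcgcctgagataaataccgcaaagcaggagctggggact
The full element TGACGTCA reads the same on both strands and contains the short form on each, and it stood in the Gpr6 window alone of the 8, starting at position -78 (the base before the start being -1). It was present in 588 of 32851 windows of all genes, or 1.79%. The short form TGACG, present in 20.8% of all windows, stood in the windows of Gpr6 and Tac1, the latter at positions -197 and -43. The AP-1 motif TGANTCA, read on both strands and present in 7.81% of all windows, was in none of the 8. These are matches of letters in the window, not measured sites.

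Per length, in TPM (transcript levels scaled by length and library size), the order of the 9 genes by their median over the 20 libraries ran from Ppp1r1b at 380.5 TPM and Penk at 297 TPM down to Drd1 at 20.8 TPM and Gpr6 at 11.8 TPM. Pde10a was at 83.9 TPM, Tac1 at 81.1 TPM, Rgs9 at 49.0 TPM, Adora2a at 31.6 TPM and Drd2 at 29.4 TPM. Each gene spanned a 2.11-fold (Penk) to 3.31-fold (Adora2a) range from its lowest to its highest library. The SD of log2 CPM over the 20 libraries was 0.281 (Pde10a) to 0.483 (Gpr6). Among tested genes with a mean logCPM of 1 or more the median SD was 0.145, and 89.2% to 98.9% of them varied less. The genotype groups held 3.37% (Gpr6) to 44.8% (Drd1) of the variance of the 9 genes, against a median of 31.9% for all tested genes.

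**Figure D1:**
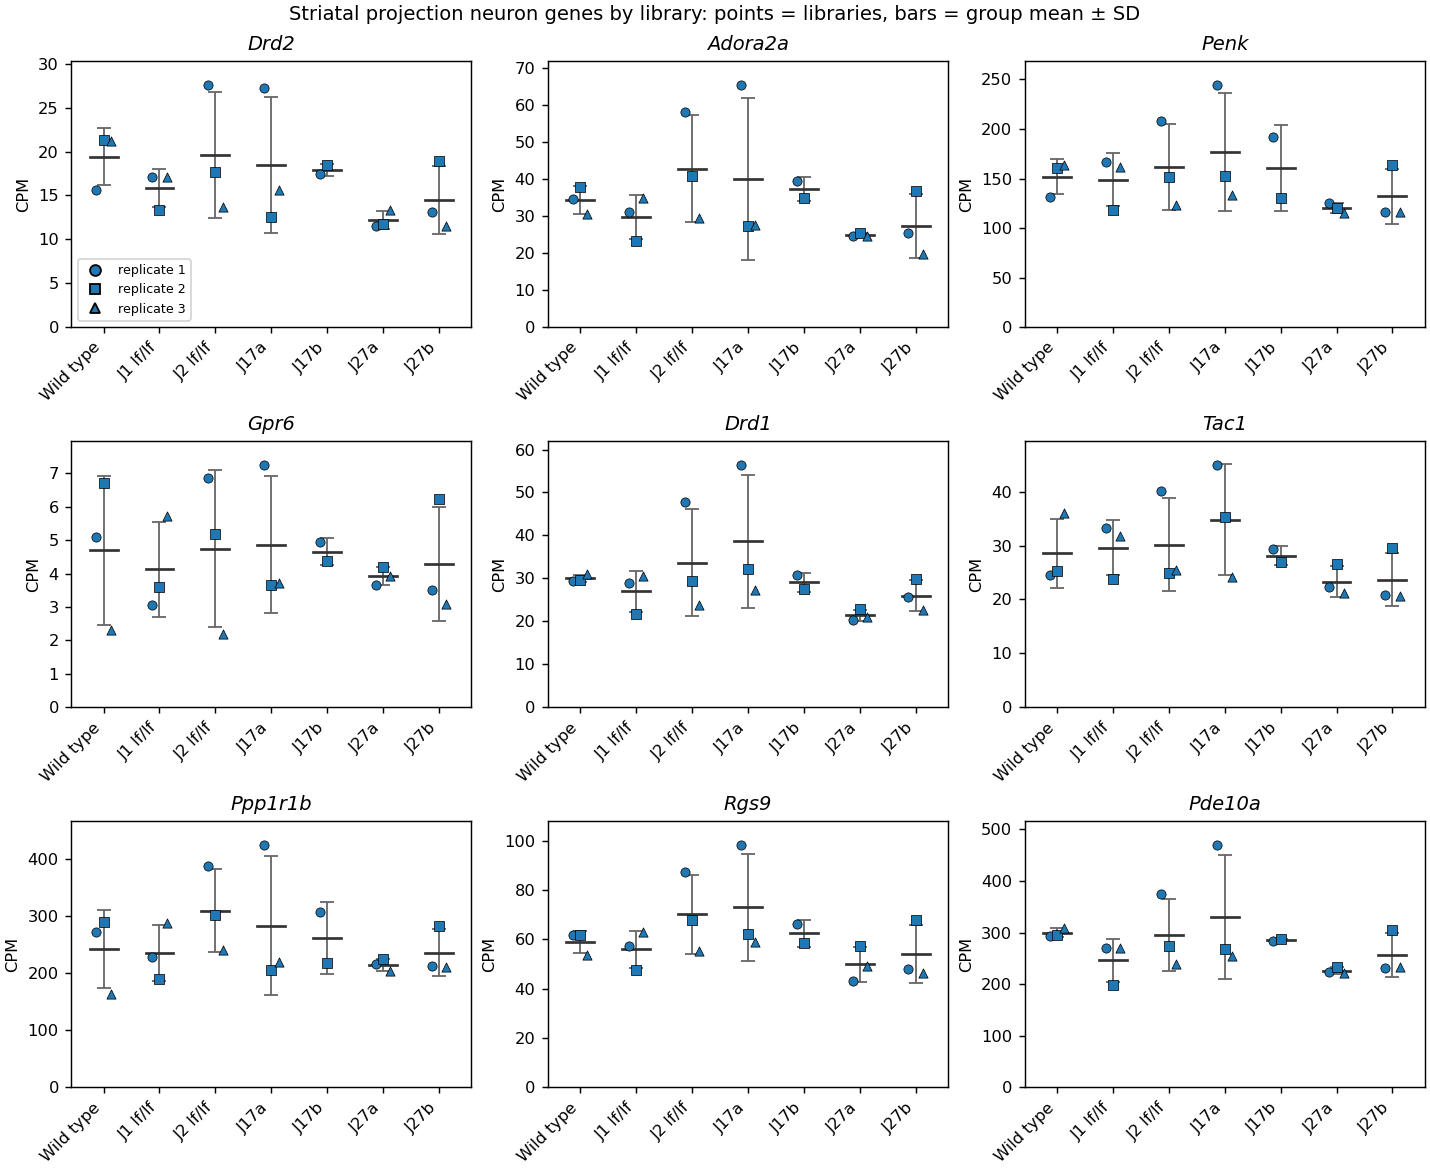
Level of each of the 9 genes in CPM (vertical axes, from 0) in the 7 genotype groups (horizontal axes). Points are libraries with the replicate number as the marker, and bars give the group mean ± SD. J27a has the lowest mean for all 9 genes, and replicate 1 of J17a and of J2 lf/lf stand at the top of every panel.

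Among the genes of the indirect pathway, Drd2 encodes the dopamine receptor that inhibits adenylyl cyclase (chromosome 9, 49340627 to 49408177, plus strand, mm10). The Wild type libraries held 15.7, 21.4 and 21.2 CPM, the J27a libraries 11.5, 11.8 and 13.4 CPM and the J27b libraries 13.1, 18.9 and 11.6 CPM. Those of J1 lf/lf were at 17.1, 13.3 and 17.1 CPM, of J2 lf/lf at 27.6, 17.6 and 13.7 CPM, of J17a at 27.2, 12.6 and 15.6 CPM and of J17b at 17.5 and 18.4 CPM. All 3 J27a libraries lay below all 3 of Wild type, whereas the J27b libraries straddled the lowest Wild type library. Group means ran in the order J2 lf/lf, Wild type, J17a, J17b, J1 lf/lf, J27b and J27a, and of the 6 neighbouring pairs 5 overlapped, J17b and J1 lf/lf being apart.

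Adora2a, the adenosine receptor that stimulates cyclic AMP in the same cells (chromosome 10, 75316877 to 75334784, plus strand), had the widest range of the 9. It stood at 65.3, 27.3 and 27.5 CPM in the J17a libraries and at 58.1, 40.8 and 29.4 CPM in those of J2 lf/lf. Wild type held 34.7, 37.9 and 30.5 CPM and J27a 24.7, 25.4 and 24.5 CPM. The J27a libraries were the most even of any group, at 24.9 ± 0.469 CPM (SD, n = 3), and lay below all Wild type libraries. The lowest library of all was J27b replicate 3, at 19.7 CPM.

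Penk, the enkephalin precursor (chromosome 4, 4133531 to 4138819, minus strand), was at 132, 160.3 and 163 CPM in Wild type and 125, 120.3 and 116 CPM in J27a, again without overlap. It reached 244 CPM in J17a replicate 1 and 209 CPM in J2 lf/lf replicate 1, its 2 highest libraries. J1 lf/lf spanned 118 to 167 CPM, J17b 129.96 to 192 CPM and J27b 116 to 164 CPM, all overlapping Wild type. An antisense gene overlaps Penk in the mm10 annotation, and how the counting treated strand is not known, so reads from the pair cannot be told apart.

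Gpr6, an orphan receptor of indirect pathway neurons (chromosome 10, 41069977 to 41072285, minus strand), was the lowest of the 9, with 58 to 227 estimated counts per library. In Wild type it was at 5.08, 6.71 and 2.30 CPM, and in J27a at 3.66, 4.19 and 3.94 CPM. The 2 lowest libraries of the 20 came from different groups, J2 lf/lf replicate 3 at 2.20 CPM and Wild type replicate 3 at 2.30 CPM. The spread inside Wild type therefore covered all 3 J27a libraries, unlike for the other indirect pathway genes. Gpr6 had the largest SE of the 9 in every contrast with Wild type.

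Of the direct pathway genes, Drd1 encodes the dopamine receptor that stimulates adenylyl cyclase (chromosome 13, 54051183 to 54055705, minus strand). Wild type was tight, with 29.3, 29.7 and 31.0 CPM, and J27a lay at 20.2, 22.9 and 20.97 CPM. J27b held 25.6, 29.9 and 22.5 CPM, J1 lf/lf 28.9, 21.6 and 30.6 CPM and J17b 30.7 and 27.5 CPM. J2 lf/lf held 47.7, 29.3 and 23.9 CPM and J17a 56.3, 32.2 and 27.3 CPM. The J27a libraries were below all of Wild type, while replicate 1 of J17a and of J2 lf/lf were far above every other library.

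Tac1, the precursor of substance P (chromosome 6, 7554879 to 7565834, plus strand), is also made by neurons outside the striatum. It was at 24.5, 25.2 and 36.0 CPM in Wild type, at 22.2, 26.6 and 21.1 CPM in J27a and at 20.9, 29.5 and 20.7 CPM in J27b. These 3 groups overlapped. Wild type replicate 3 was the highest of the 3 Wild type libraries for Tac1 while being the lowest of the 3 for Gpr6, Adora2a, Ppp1r1b and Rgs9.

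Ppp1r1b encodes the phosphoprotein that blocks protein phosphatase once protein kinase A has acted on it (chromosome 11, 98348404 to 98357796, plus strand). Wild type held 272, 289 and 163 CPM, of which the last was the lowest of the 20 libraries. J27a held 215, 225 and 204 CPM, inside the Wild type range. The antisense gene 1700003D09Rik, which overlaps Ppp1r1b, was at 0.134 to 1.08 CPM over the 20 libraries.

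Pde10a, which breaks down cyclic AMP and cyclic GMP in both kinds of projection neuron (chromosome 17, 8525372 to 8986648, plus strand), was at 294, 294 and 309 CPM in Wild type and 224, 233 and 222 CPM in J27a, without overlap. J17a held 469, 268 and 255 CPM. J1 lf/lf, at 271, 198 and 270.1 CPM, and J17b, at 284 and 287 CPM, also lay below all of Wild type. So did 638 (J1 lf/lf) and 1102 (J17b) of the 16063 tested genes. In the mm10 annotation 3 genes on the other strand overlap Pde10a, and none of them is among the counted genes. As for Penk, reads from them cannot be told apart. Rgs9, which speeds the shut-off of G proteins in these cells (chromosome 11, 109225355 to 109298129, minus strand), was at 61.6, 61.7 and 53.6 CPM in Wild type and 43.0, 57.3 and 49.2 CPM in J27a, where the groups overlapped. For these 3 shared genes and for all of the others except Drd2, each group overlapped its neighbours in the order of means, 6 of 6 pairs.

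Across the 7 groups, J27a had the lowest mean for 9 of 9 genes. J17a had the highest mean for 6 of them and J2 lf/lf for Drd2, Adora2a and Ppp1r1b. J27b was among the 3 lowest groups for 9 genes and J1 lf/lf for 8. A test for any difference among the groups (edgeR quasi-likelihood F test, adjusted by Benjamini-Hochberg over all genes) called none of the 9, with adjusted p from 0.805 (Drd1) to 0.995 (Gpr6), and called 14 of all genes, or 0.0872%. At an unadjusted p under 0.05 it held 0 of the 9 and 1078 of all genes. DESeq2 called 231 genes and limma on log2(TPM + 1) called 3, none of the 9 in either.

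All contrasts with Wild type share its 3 libraries. Contrast by contrast the 9 genes were called 0 times by edgeR, by DESeq2 and by limma. In J1 lf/lf against Wild type 0.0125% of tested genes were called (2 genes), in J2 lf/lf 0.00623% (1 gene), in J17a 0% (0 genes), in J17b 0.0249% (4 genes), in J27a 0% and in J27b 0%. J17a against J17b and J27a against J27b each called 0%. With so few genes called in all, a count of 0 among 9 is no different from the background. At an unadjusted p under 0.05, between 705 (J17a) and 1276 (J2 lf/lf) genes stood out against Wild type, and of the 9 genes only Drd2 in J27a did (limma had 3 of the 9 there and DESeq2 had 1). The contrasts J17a against J17b and J27a against J27b held 948 and 930 genes at that level, and none of the 9. DESeq2 called 1 (J17a) to 17 (J1 lf/lf) genes in the contrasts with Wild type, 9 in J17a against J17b and 1 in J27a against J27b, and limma on log2(TPM + 1) called 1 in J1 lf/lf, J2 lf/lf and J17b and 0 in the others.

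In J27a against Wild type the point estimate was negative for 9 of 9 genes, with a median log2 fold change of -0.34 and a range from -0.67 to -0.17, while 50.2% of all tested genes were negative and their median was -0.00059. The 9 genes varied together over the libraries (median pairwise r 0.835, given below). Their signs, here and in the contrasts that follow, are therefore not 9 separate observations. Drd2 had the largest difference, at 63.0% of Wild type, with a log2 fold change of -0.67 (SE 0.276, 95% interval -1.25 to -0.08). Its unadjusted p from edgeR was 0.0278 and its adjusted p 0.959. Leaving out the 3 libraries with the most pituitary transcripts, where Drd2 is also made, gave -0.66 for Drd2, but turned Gpr6 and Ppp1r1b from negative values to 0.0784 and 0.0127.

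Drd1 stood at 71.2% of Wild type, with a log2 fold change of -0.49 (SE 0.254, 95% interval -1.03 to 0.05). Adora2a stood at 72.3%, with -0.47 (SE 0.331, 95% interval -1.18 to 0.24). Pde10a stood at 75.6%, with -0.40 (SE 0.209, 95% interval -0.85 to 0.04). These 3 intervals reach from a level well below Wild type to one slightly above it, and the edgeR adjusted p was 0.959 for each.

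The log2 fold change of Penk was -0.34 (SE 0.244, 95% interval -0.86 to 0.19), that of Tac1 -0.29 (SE 0.235, 95% interval -0.79 to 0.21) and that of Rgs9 -0.24 (SE 0.204, 95% interval -0.68 to 0.19). That of Gpr6 was -0.27 (SE 0.416, 95% interval -1.15 to 0.61) and that of Ppp1r1b -0.17 (SE 0.291, 95% interval -0.80 to 0.45). Among these smaller values, some moved with single libraries. Ppp1r1b was at -0.39 without Wild type replicate 3, at -0.0774 without replicate 1 and at -0.0171 without replicate 2. Tac1 was at -0.0933 without Wild type replicate 3, and Rgs9 at -0.14 without J27a replicate 1. The largest adjusted p among the 9 was 0.970. All 3 J27a libraries lay below all 3 Wild type libraries for 5 of the 9 genes, Drd2, Adora2a, Penk, Drd1 and Pde10a, and for 3.85% of all tested genes (618). Pde10a, as 1 of the 9, was also below all Wild type libraries in J1 lf/lf and in J17b, which had 2 libraries. The same held for 638 (J1 lf/lf) and 1102 (J17b) of the 16063 tested genes. None of the 9 had all J27a libraries above Wild type, beside 4.16% of all tested genes.

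The direction of this difference depended on how the numbers in the titles were handled. Library titles begin with a number, up to 10 for all Wild type libraries and above 10 for all J27a libraries, so the comparison cannot be made within either range. A fit with a term for numbers above 10 gave positive values for all 9 genes in J27a, from 0.28 (Drd2) to 0.82 (Ppp1r1b). That term is estimated only from the J17a group, whose replicate 1 carries the number 10 and whose other 2 libraries carry higher ones. J17a replicate 1 was also the library with the highest level of 8 of the 9 genes. Without Wild type replicate 2 alone, the Gpr6 value changed from -0.27 to 0.0856, and without Wild type replicate 3 it was -0.59.

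**Figure D2:**
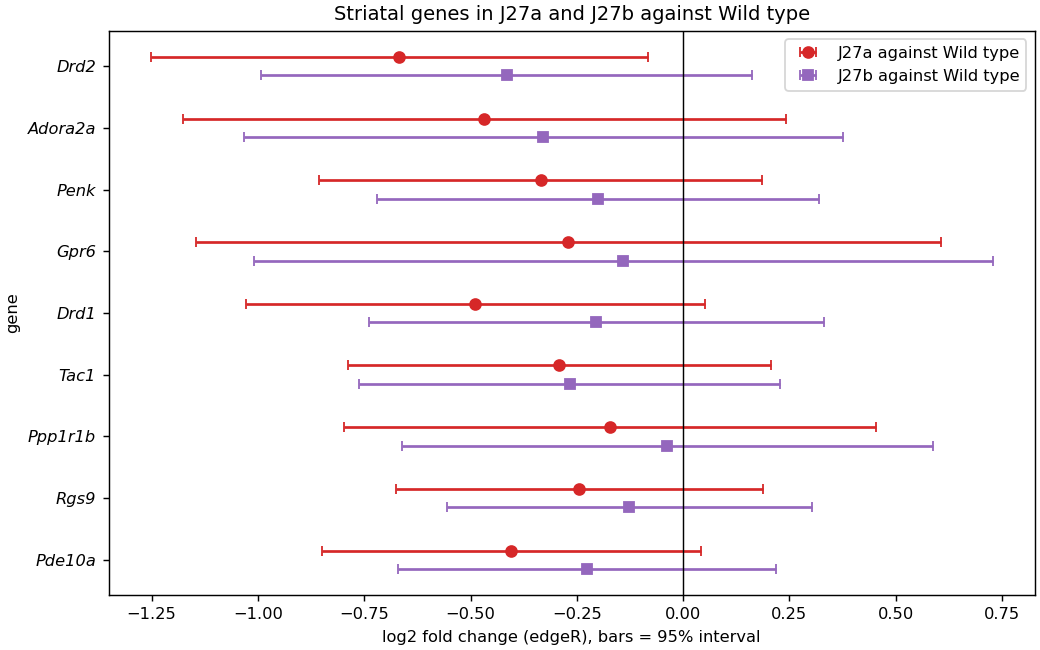
Log2 fold change of each of the 9 genes (horizontal axis) in J27a (red circles) and J27b (purple squares) against Wild type, with the 95% interval of the edgeR fit. All 18 point estimates lie below 0, and of the intervals only that of Drd2 in J27a, -1.25 to -0.08, does not include 0.

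Several marker lists of other regions had values of 1 sign in the same contrast, none with a called gene. Thalamic genes were negative in 7 of 7 (median -0.33) and were summed at 294 to 353 CPM in J27a and 299.8 to 583 CPM in Wild type. Cortical and hippocampal glutamatergic genes were positive in 10 of 10 (median 0.17), summed at 1571 to 1822 CPM against 1054 to 1749 CPM. Anterior pituitary genes were negative in 6 of 6 (median -1.69) and choroid plexus genes, Ttr above all, in 6 of 6 (median -0.40). Hindbrain genes were positive in 7 of 7 (median 0.70), and the GABAergic genes Gad1, Gad2 and Slc32a1 were negative in 3 of 3 (median -0.13). The list of striatal interneurons and cholinergic cells (Sst and Pvalb highest) was negative in 8 of 9 (median -0.10). It summed at 344 to 417 CPM in J27a and 355 to 419 CPM in Wild type. Astrocyte genes were negative in 5 of 5 (median -0.11). General neuron genes had a median of 0.02. No defining marker of these lists was at 0 throughout J27a or Wild type. Rn45s was at 20169 to 30554 CPM in J27a and 3582 to 6658 CPM in Wild type. The part of tissue composition and of Rn45s in the striatal values was not tested beyond leaving Rn45s out of the counts, which gave -0.66 for Drd2.

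J27b, which shares the Wild type samples with the J27a comparison, had 9 of 9 negative values against Wild type, with a median of -0.20 and a range from -0.41 (Drd2) to -0.04 (Ppp1r1b). The median was -0.39 without J27b replicate 2, -0.11 without J27b replicate 3 and 0.62 with the term for title numbers above 10. None of the 9 genes separated the J27b from the Wild type libraries, J27b replicate 2 lying among or above them. Over all tested genes 5.9% were below and 6.01% above in every J27b library, so that a count of 0 among 9 is near the background. None of the 9 had an unadjusted p under 0.05 in this contrast, beside 6.94% of all tested genes. Set directly against each other, J27a was below J27b for 9 of 9 genes with a median log2 difference of -0.13 (range -0.29 to -0.02), a difference smaller than the spread of the J27b libraries. Its direction rested on J27b replicate 2: the median was 0.0542 without that library, -0.21 without J27b replicate 1 and -0.24 without J27b replicate 3.

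In J1 lf/lf the median was -0.15 (range -0.30 to 0.05) and nearly all of it came with J1 lf/lf replicate 2, without which it was -0.0104. Without Wild type replicate 2 it was -0.0448, without Wild type replicate 3 -0.23 and without J1 lf/lf replicate 3 -0.25. In J17b the median was -0.02 (range -0.11 to 0.12), and it ran from -0.0881 without J17b replicate 1 to 0.12 without Wild type replicate 2.

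J17a and J2 lf/lf had medians above Wild type, 0.22 (range -0.07 to 0.37) and 0.09 (range -0.02 to 0.36), and each rested on a single library. Without J17a replicate 1 the J17a median was -0.18, and without J2 lf/lf replicate 1 the J2 lf/lf median was -0.17. Without replicate 3 of the same group these medians were 0.39 and 0.35. J17a against J17b had a median of 0.14 (range 0.04 to 0.41), which was -0.17 without J17a replicate 1 and 0.33 without J17b replicate 1. Whether the 7a and 7b lines differed by the same amount under both code stems was tested as the difference between the 2 differences, a contrast added after the data were seen. It called 0.00623% of genes (1 gene) and none of the 9, whose values ran from 0.19 (Gpr6) to 0.70 (Drd1). For Drd1 the 95% interval was -0.12 to 1.51 and the edgeR adjusted p 0.792. The median of the 9 was 0.30 with J17a replicate 1 and -0.03 without it, and 0.0912 without J27b replicate 2.

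A pair of libraries set the upper end for nearly all of these genes. J17a replicate 1 was the highest of the 20 for 8 of the 9, and for Drd2 it was second at 27.2 CPM after J2 lf/lf replicate 1 at 27.6 CPM. Both were among the 3 highest libraries for 9 of 9 genes, with a median deviation of 0.76 and 0.65 log2 units from each gene's mean over the libraries. The median deviation over all genes in these libraries was 0.0058 and 0.0095. A list of 27 other striatal projection neuron genes (Gnal and Arpp21 highest), described further below, was also high in both. It summed to 3766 CPM in J17a replicate 1 (rank 1 of the 20) and 3259 CPM in J2 lf/lf replicate 1 (rank 2). In J17a replicate 1 the cerebellar list (Car8 and Cbln3 highest) summed to 1465 CPM, the highest of its group and rank 3 of the 20. In J2 lf/lf replicate 1 the choroid plexus list summed to 1827 CPM, the highest of the 20. The list of midbrain dopamine neurons (Nr4a2 and Ddc highest over all libraries) was also highest there, at 127 CPM, and the hypothalamic list (Pomc and Pmch highest) was among the 3 highest, at 127 CPM. The part of these in the striatal values was not tested.

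The low end was shared more evenly. None of the 9 genes was above its mean in any J27a library, where the median deviations were -0.31, -0.22 and -0.29. J27b replicates 1 and 3 were at -0.31 and -0.35 with 0 of 9 above, but J27b replicate 2 was at 0.19 with 9 of 9 above. J1 lf/lf replicate 2 (-0.31), J2 lf/lf replicate 3 (-0.19) and J17a replicate 3 (-0.14) also had 0 of 9 above. Low levels of all 9 genes were thus found in libraries of 5 groups.

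**Figure D3:**
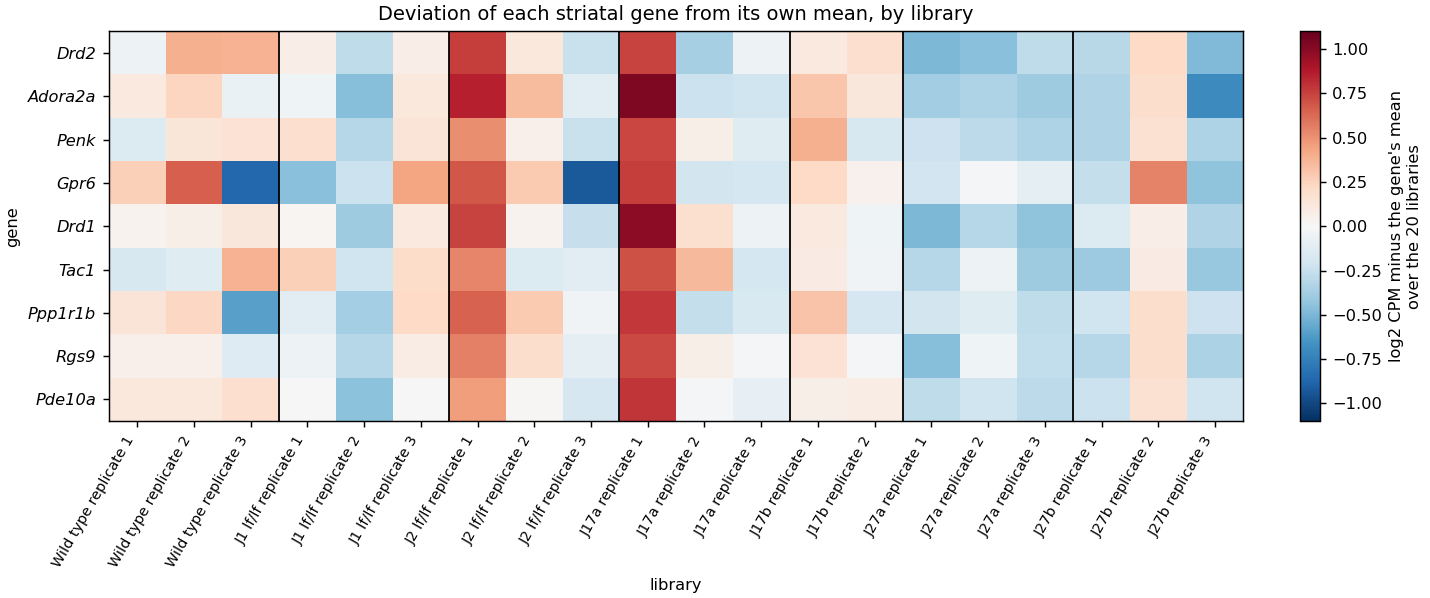
Log2 CPM of each of the 9 genes (rows) in each of the 20 libraries (columns, groups parted by black lines) minus the gene's mean over the libraries, red above and blue below. J17a replicate 1 and J2 lf/lf replicate 1 are red throughout, and the 3 J27a libraries carry no value above 0.

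Wild type replicate 3 broke the pattern. Gpr6 was 0.86 log2 units below its mean there and Ppp1r1b was at its lowest of all libraries, while Drd2 was 0.38 units above its mean and Tac1 and Pde10a were the highest of Wild type. In this library the cortical and hippocampal list had its lowest sum of the 20, 1054 CPM, and the thalamic list its highest, 583 CPM. Their part in the levels of Gpr6 and Ppp1r1b was not tested.

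Over the 20 libraries the 9 genes were high and low together. Pearson's r of log2 CPM over the 36 pairs ran from 0.323 (Gpr6 and Tac1) to 0.951 (Drd1 and Pde10a), with a median of 0.835, and Spearman's rho had a median of 0.753. With permutation p-values from 100000 resamples, adjusted by Benjamini-Hochberg over the 36 pairs, 35 pairs passed 0.05 by Pearson's r and 34 by Spearman's rho. The smallest p these permutations can give is 1e-05. The pair that missed by both was Gpr6 and Tac1 (Pearson's permutation p 0.165), and Tac1 and Ppp1r1b missed by rho alone.

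The relation weakened without the highest libraries. With the 2 libraries farthest from the median of the first gene of a pair left out, r ran from 0.0300 (Tac1 and Ppp1r1b) to 0.892 (Gpr6 and Ppp1r1b), with a median of 0.713. With J17a replicate 1 and J2 lf/lf replicate 1 left out of every pair, 25 of 36 pairs passed, and the lowest r was -0.03 (Gpr6 and Tac1). The relation between Tac1 and Ppp1r1b thus rested on those libraries, whereas Drd1 and Pde10a kept an r of 0.879. Within titles numbered up to 10 the median r was 0.845, within those above 10 it was 0.769, and for deviations from group means it was 0.840.

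The pairing followed pathway only in part. Drd1, of the direct pathway, had an r of 0.913 with Penk, 0.901 with Adora2a and 0.859 with Drd2, all of the indirect pathway, and 0.861 with Tac1 of its own. Gpr6 was the least tied to the rest, with a median r of 0.590 to the other 8 genes, against 0.892 for Adora2a. Its closest partner was Ppp1r1b (r = 0.818, and 0.881 for deviations from group means). These differences between values of r were not tested.

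**Figure D4:**
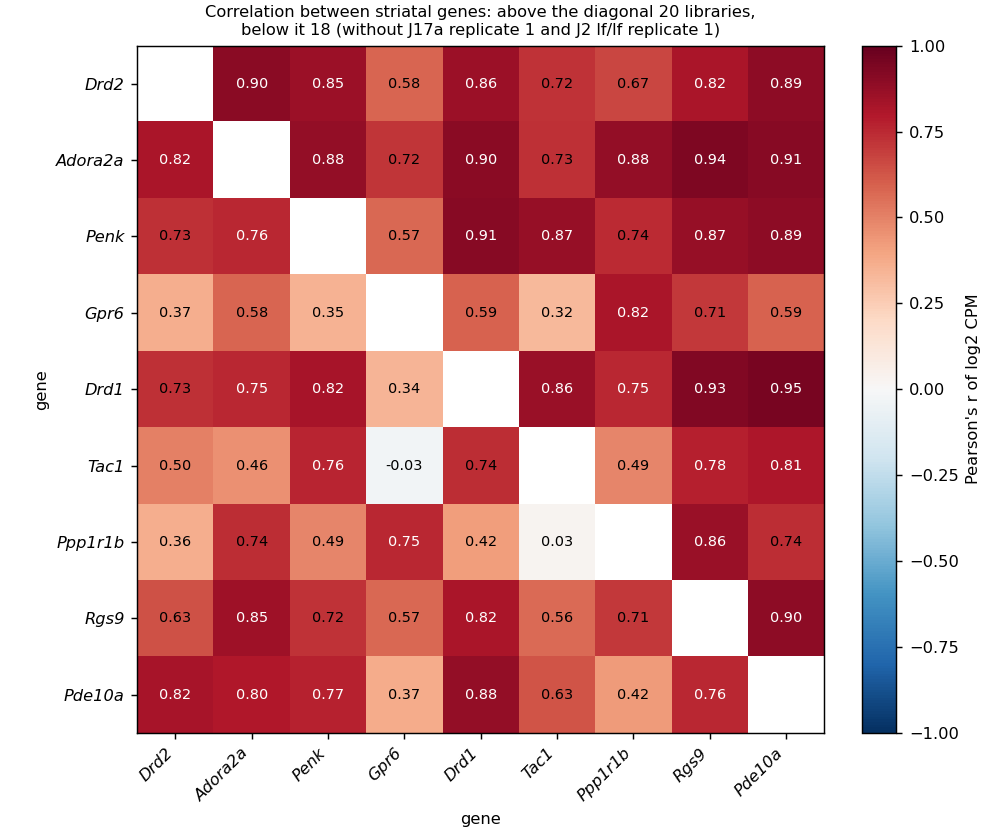
Pearson's r between the 9 genes from log2 CPM, over the 20 libraries above the diagonal and over 18 below it, without J17a replicate 1 and J2 lf/lf replicate 1. The pairs of Tac1 with Gpr6 and with Ppp1r1b hold the lowest values, down to 0.323 above the diagonal and -0.03 below it. Gpr6 is not low throughout, its r with Ppp1r1b being 0.818 above the diagonal and 0.750 below it.

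**Figure D5:**
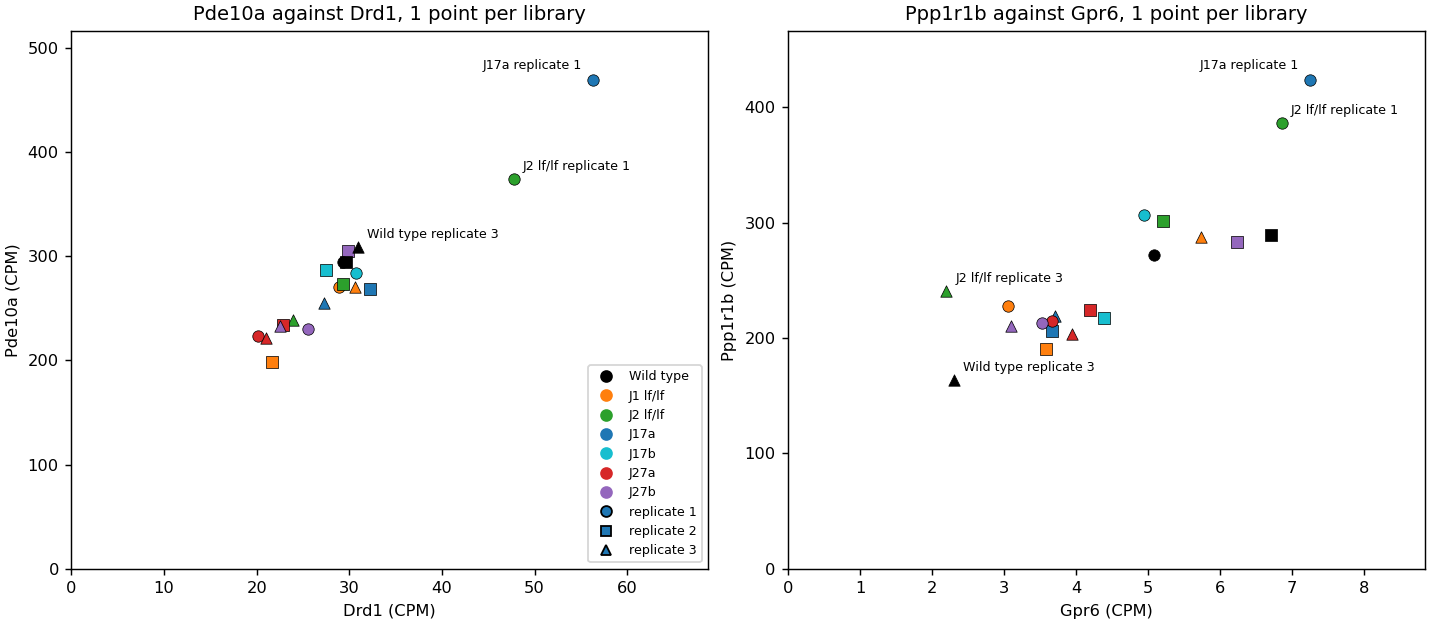
Level in CPM, with 1 point per library, of Pde10a against Drd1 (left) and of Ppp1r1b against Gpr6 (right), colours giving the group and markers the replicate. J17a replicate 1 and J2 lf/lf replicate 1 lie apart at the upper right of both panels, and Wild type replicate 3 lies at the lower left only in the right panel.

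Ratios of indirect to direct pathway genes were compared as levels per length. Drd2 to Drd1, from TPM, was 1.48 ± 0.191 over the libraries (SD, n = 20), from 0.997 in J17a replicate 2 to 1.85 in Wild type replicate 2. Group means of this ratio ran from 1.23 ± 0.230 in J17a to 1.65 ± 0.251 in Wild type (SD, n = 3 each), and J27a was at 1.48 ± 0.162 (SD, n = 3). Penk to Tac1 was 3.51 ± 0.383 and Adora2a to Drd1 1.58 ± 0.196 (SD, n = 20). Penk to Tac1 was 3.42 ± 0.386 in J27a and 3.58 ± 0.584 in Wild type (SD, n = 3 each), so the J27a libraries, low in all 9 genes, overlapped Wild type in both ratios. Gpr6 to Drd2 was 0.426 ± 0.0983 (SD, n = 20), and 0.170 in Wild type replicate 3, its lowest.

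To see which transcripts followed the 9 genes, 13036 other genes whose mean logCPM was 1 or more were ranked by their Pearson's r with the mean of the 9 standardised levels over the 20 libraries. Among the first 10 were Rasd2 (0.954), Gng7 (0.928), Sh3rf2 (0.926), Syndig1l (0.922), Pde1b (0.914), Rxrg (0.909), Lrrc10b (0.906), Adcy5 (0.906) and Cd4 (0.881). All values of r come from the same 20 libraries and are given as a description, and without J17a replicate 1 and J2 lf/lf replicate 1 those of the genes named ran from 0.769 (Cd4) to 0.878 (Rasd2). Gng7, Syndig1l, Pde1b, Rxrg, Lrrc10b and Adcy5 were on a list of 27 other genes of striatal projection neurons. Gng7 is a G protein subunit and Adcy5 the adenylyl cyclase of striatal neurons. Of the 26 listed genes that could be ranked, 18 were among the first 100, and 19 had an r above 0.5, against 1.77% of all ranked genes. Oprm1, the mu opioid receptor, was the lowest of the list at -0.19.

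The 27 other striatal genes were called 0 times in J27a against Wild type by edgeR, beside 0% of all genes, with 3 at an unadjusted p under 0.05 (Rxrg, Rasgrp2 and Gnal, named after their values were seen), beside 4.84% of all genes. Their point estimates were negative in 25 of 27, with a median log2 fold change of -0.21. The largest differences were those of Isl1, a transcription factor of direct pathway neurons, at -0.63 (SE 0.321), the retinoid receptor Rxrg at -0.62 (SE 0.265) and Lrrc10b at -0.55 (SE 0.347). The smallest were those of Foxp1 (0.02), Pdyn, the dynorphin precursor of direct pathway neurons (-0.03), and Tmem158 (-0.05). In J27a all libraries lay below Wild type for 8 of these 27 genes, beside 3.85% of all tested genes (618 of 16063). The same held for 4 of the 27 in J1 lf/lf (638 of all tested genes) and 4 in J27b (948). It held for 3 in J17b (1102), 1 in J2 lf/lf (810) and 0 in J17a (492). The 9 genes described above and this list thus had the same sign in most members, but no member of either passed the threshold.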

How the data were processed

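Poly(A)-enriched brain libraries were read as paired ends of 150 bp on a NovaSeq6000, per the labels' protocols. The authors deposited estimated counts per gene, and the submitters' processing notes name cutadapt, RSEM and build mm10. Of these values 4.11% were not whole. The TPM values the authors deposited come from the same table of genes. Tool versions, the annotation and the handling of strand: not given in the sources used here.

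Counts were rounded and tested with edgeR 4.0.16 (R 4.3.3) over all 23845 genes, 4428 of them 0 throughout: TMM factors (0.975 to 1.03), the filterByExpr filter, robust quasi-likelihood fits with a mean per group over the 20 libraries (common dispersion 0.0144), and Benjamini-Hochberg adjustment over 16063 genes per contrast at a threshold of 0.05, two-sided. The CPM values use these factors. Correlations and their 100000 permutations were computed with numpy 2.4.6, with the ranks for Spearman's rho from scipy 1.17.1. Positions come from GENCODE release M21 on mm10. DESeq2 1.42.0, limma 3.58.1 on log2(TPM + 1) and log2(TPM + 0.1), DESeq2 size factors, no filter, only the groups of a contrast, the replicate number as a block, the title number as a term, Rn45s or the libraries highest in pituitary transcripts left out, and each library left out were alternatives.

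The genes, lists and alternatives were chosen with earlier results of these data known. All 9 genes were named, with each log2 change in J27a against Wild type. Elsewhere the rule gave a gene's change only at an unadjusted p under 0.05, and the genes that end a range there, with the interval of Drd1, were picked with those values in view. The 10 most similar genes (1 of them is not reported here), and the 3 largest and 3 smallest changes of the other striatal list, were named as well. On simulated counts for J27a against Wild type over 16063 genes, the test found 4.98% of changes of 1.2-fold, 41.3% of those of 1.4-fold and 90.4% of those of 2-fold. Of the calls, 4.23% were false. These shares cover all genes, not the 9 alone. The 9 had an SD of log2 CPM of 0.281 to 0.483, against a median of 0.145 for genes of mean logCPM 1 or more. The share of changes found among genes as variable as the 9 was not tested. All 19 pairs of replicates differed by more than counting noise (chi-square per gene 5.43 to 62.1).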

Additional observations from a re-analysis of the deposited data

How the results depend on the processing

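None of the 9 genes was called in any of the 186 counts under other settings, and in 270 F tests their adjusted p stayed between 0.376 and 1.00 (edgeR, DESeq2 or limma). The count of correlated pairs stayed within 1.5 times of 35 in 22 of 22 settings (25 to 36). The title number as a term made the J27a changes positive: Drd2 0.28, Adora2a 0.79, Penk 0.44, Gpr6 0.70, Drd1 0.43, Tac1 0.30, Ppp1r1b 0.82, Rgs9 0.46 and Pde10a 0.44. It moved the median to 0.69 in J17a, 0.85 in J17b, 0.44 in J27a, 0.62 in J27b and -0.0341 in the added difference of differences, a term estimated within J17a alone. Without the 3 libraries highest in pituitary transcripts, Gpr6 was 0.0784 and Ppp1r1b 0.0127 in J27a, and the J17b median was 0.12. limma on log2(TPM + 1) and on log2(TPM + 0.1) gave a J17b median of 0.0669 and 0.0670. Without J17a replicate 1 and J2 lf/lf replicate 1, a setting added after seeing the data, the median was -0.18 in J17a and -0.0339 in the difference of differences. With single libraries left out, the median ran from -0.18 to 0.39 in J17a, -0.0881 to 0.12 in J17b, -0.42 to -0.31 in J27a and -0.0342 to 0.45 in the difference of differences, and Gpr6 in J27a from -0.59 to 0.0856. The causes of these shifts were not tested.

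Counts of all called genes moved more. J1 lf/lf (2) gave 1 without the pituitary-rich libraries, with only its groups and with both limma fits, 17 with DESeq2, and 1 to 15 with single libraries left out. J2 lf/lf (1) gave 11 with DESeq2 and 1 to 7 with libraries left out. J17a (0) gave 1 with DESeq2 and 0 to 1. J17b (4) gave 1 with both limma fits, 2 with the title term, without Rn45s and without the pituitary-rich libraries, 0 with only its groups, 16 with DESeq2 and 1 to 54, the highest without Wild type replicate 3. J27a (0) gave 1 with only its groups, 5 with DESeq2 and 0 to 3. J27b (0) gave 7 with DESeq2 and 0 to 2. J17a against J17b (0) gave 2 with the title term and with only its groups, 9 with DESeq2, 3 without the pair of high libraries and 0 to 2. J27a against J27b (0) gave 1 with no filter, with the title term, with DESeq2 and without the pair, and 125 with only its groups. The difference of differences (1) gave 11 with the title term, 0 without the pituitary-rich libraries and with both limma fits, 17 with DESeq2, 9 without the pair and 0 to 11. The F test (14) gave 5 with the title term and without the pair, 2 without the pituitary-rich libraries, 3 with both limma fits, 231 with DESeq2 and 2 to 114.

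With the replicate block, J17b called 1 gene and the difference of differences 0, the J27a median was -0.35, and none of the 9 genes was called. The samples share only a number: same-numbered libraries had a mean correlation of -0.0088, with 2 of 57 pairs over 0.1. Depth limits Gpr6 most, at 58 counts in its lowest library.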
